A study of Rattus norvegicus with 6 samples.

Results

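The genes described here encode 5 integrin chains (Itga6, Itgb4, Itgb1, Itga2 and Itga3) and 4 proteins of the basement membrane (the laminin chains Lama3, Lamb3 and Lama5, and the linker protein Nid1). They were chosen by name, and each was followed through every probe set that the platform annotation assigned to it alone. Of these 9 genes, 8 had such a probe set, 15 probe sets in all, out of 14213 genes and 31099 probe sets in the table. The exception was Itga2, a collagen-binding integrin chain, whose expression was not analysed here.

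RNA came from mammospheres, floating spheres grown in culture from single cells of an epithelium-enriched preparation of rat mammary gland. The donors were female Sprague Dawley rats that received daily intraperitoneal injections from an age of 55 days for 21 days. The hCG group received recombinant human chorionic gonadotropin, a pregnancy hormone that acts on the ovary, at 100 IU per day, and the Control group received phosphate buffered saline. Glands were taken 21 days after the last injection and spheres were collected after 7 days of culture, on 3 hCG arrays and 3 Control arrays, both numbered 5, 6 and 7. The comparison asked which of these genes differed in spheres grown after the hormone exposure had ended. The labels do not say whether every array stands for its own animal, so the tests weigh differences against the spread among these arrays, part of which may be technical.

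The basement membrane is a thin sheet of laminin, collagen IV, nidogen and heparan sulfate proteoglycan on which epithelia, blood vessels and muscle rest. Laminins are trimers of an alpha, a beta and a gamma chain. The chains encoded by Lama3 and Lamb3 belong to the laminin that anchors stratified and glandular epithelia, while the Lama5 chain belongs to laminins under both epithelium and vessels. Integrins are receptors of an alpha and a beta chain. The Itga6 product pairs with that of Itgb4 in hemidesmosomes, the rivets that join keratin filaments to the basement membrane, and also with that of Itgb1, whereas the Itga3 product pairs with Itgb1 alone. In the mammary gland the outer basal and myoepithelial cells touch the basement membrane and carry most of the Itga6 and Itgb4 protein, and antibodies to the Itga6 and Itgb1 products are widely used to sort basal and stem-like cells.

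The promoter stretches of both measured chains of the epithelial laminin and of Nid1 are shown because Lama3 and Lamb3, 2 chains of 1 protein, had different patterns across the arrays, and because Nid1 was the one matrix protein among the members whose groups did not overlap. Each is the 250 bases before the RefSeq start in the rat assembly GRCr8, plus strand, with letters of the AP-1 motif TGANTCA or the GC box GGGCGG (both strands searched, with no overlap between the motifs) in capitals. The Lama3 window, chr18:3952517-3952766, lies inside the annotated gene, at an inner start, and held 3 AP-1 matches and 0 GC boxes. The Lamb3 window, chr13:107362303-107362552, runs past the annotated start of its gene at 107362514, and held 0 of either. The Nid1 window, chr17:93069036-93069285, also lies within the annotated extent of its gene, and held 2 GC boxes and 0 AP-1 matches.
Lama3: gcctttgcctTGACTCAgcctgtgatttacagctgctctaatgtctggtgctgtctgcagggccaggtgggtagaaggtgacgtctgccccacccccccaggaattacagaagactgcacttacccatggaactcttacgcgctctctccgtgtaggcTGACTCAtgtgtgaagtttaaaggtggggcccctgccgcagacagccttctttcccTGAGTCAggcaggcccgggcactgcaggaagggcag
Lamb3: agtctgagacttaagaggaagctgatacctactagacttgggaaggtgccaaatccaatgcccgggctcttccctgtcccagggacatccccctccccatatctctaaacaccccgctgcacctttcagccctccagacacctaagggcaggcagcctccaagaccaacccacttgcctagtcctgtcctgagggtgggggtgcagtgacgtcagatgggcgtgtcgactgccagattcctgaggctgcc
Nid1: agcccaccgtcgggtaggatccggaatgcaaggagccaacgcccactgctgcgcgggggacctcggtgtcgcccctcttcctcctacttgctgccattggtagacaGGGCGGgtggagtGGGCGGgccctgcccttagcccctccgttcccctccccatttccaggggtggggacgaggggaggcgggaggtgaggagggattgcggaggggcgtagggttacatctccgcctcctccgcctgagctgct
Of 33469 RefSeq promoter windows of that length, 6.34% held an AP-1 match and 30.5% a GC box. Promoter entries were found for 7 members. Lama5 and Itgb1 had 4 GC boxes each, Itga2 had 3 and Itga3 had 2, and none of these 4 had an AP-1 match. A match is a run of letters and was not tested as a binding site.

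None of the 8 measured members passed limma's moderated test over all genes: 0 were called higher and 0 lower in hCG spheres at an adjusted p under 0.05, where 1.82% of the 10423 tested genes were called. At an unadjusted p under 0.05, Itga6 and Nid1 were higher and Itga3 was lower in hCG spheres, 3 of 8 members, against 24.1% of all tested genes. In the same 3 genes the groups did not overlap, 2 with hCG higher (19.3% of all tested genes) and 1 with hCG lower (12.3%), which is 31.6% in either direction over all tested genes. Members lay on both sides of 0, with 5 above and 3 below, where 55.8% of all tested genes lay above 0. The members' median log2 change was 0.17, and that of all tested genes was 0.03.

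Itga6 had the largest change among the members. Its brightest probe set read 6.32, 5.77 and 6.15 on hCG 5, 6 and 7, against 4.59, 5.41 and 5.59 on Control 5, 6 and 7 (log2 expression). All 3 hCG arrays lay above all 3 Control arrays, with 0.17 between the nearest, and the lowest value was that of Control 5. The means were 6.08 ± 0.28 in hCG spheres and 5.20 ± 0.54 in Control spheres (SD, n = 3 arrays each). The log2 change was 0.88 (SE 0.28, 95% interval 0.23 to 1.54, 1.84-fold), with a limma adjusted p = 0.125. Without Control 5 it was 0.58 (limma adjusted p = 0.189). The other 3 probe sets of Itga6 were dim, with means of 1.99 to 2.25 over the 6 arrays, below the level of 2.67 used as a filter, and their log2 changes lay between -0.05 and 0.13.

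Itgb4, the partner chain of Itga6 in hemidesmosomes, overlapped between the groups. It read 4.16, 4.72 and 4.72 on hCG 5, 6 and 7, against 2.96, 4.48 and 4.78 on Control 5, 6 and 7. Control 5 stood well below the other 5 arrays, and the highest value was that of Control 7. The log2 change was 0.46 (SE 0.46, 95% interval -0.63 to 1.55), with a limma adjusted p = 0.582. Without Control 5 the sign turned, to -0.10 (SE 0.21).

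Itgb1, the common beta chain that pairs with many alpha chains, was bright and the steadiest member by its Control spread. Its brighter probe set read 10.51, 10.65 and 10.65 on hCG 5, 6 and 7, against 10.56, 10.52 and 10.46 on Control 5, 6 and 7. The log2 change of 0.09 (SE 0.08) had a 95% interval of -0.10 to 0.28, so a change of more than 0.28 in either direction lay outside that interval. The second Itgb1 probe set ranged from 9.31 to 9.40 in hCG spheres and from 8.88 to 9.53 in Control spheres, with a log2 change of 0.12 (SE 0.16).

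Itga3, the laminin-binding alpha chain that pairs with Itgb1 in cells attached through focal contacts, was the only integrin member with a change below 0. It read 5.84, 6.09 and 5.82 on hCG 5, 6 and 7, against 6.45, 6.12 and 6.28 on Control 5, 6 and 7. The groups did not overlap, but hCG 6 and Control 6 lay only 0.04 apart. The means were 5.91 ± 0.15 in hCG spheres and 6.28 ± 0.16 in Control spheres (SD, n = 3 arrays each). The log2 change was -0.37 (SE 0.12, 95% interval -0.65 to -0.09), with a limma adjusted p = 0.133.

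**Figure D1:**
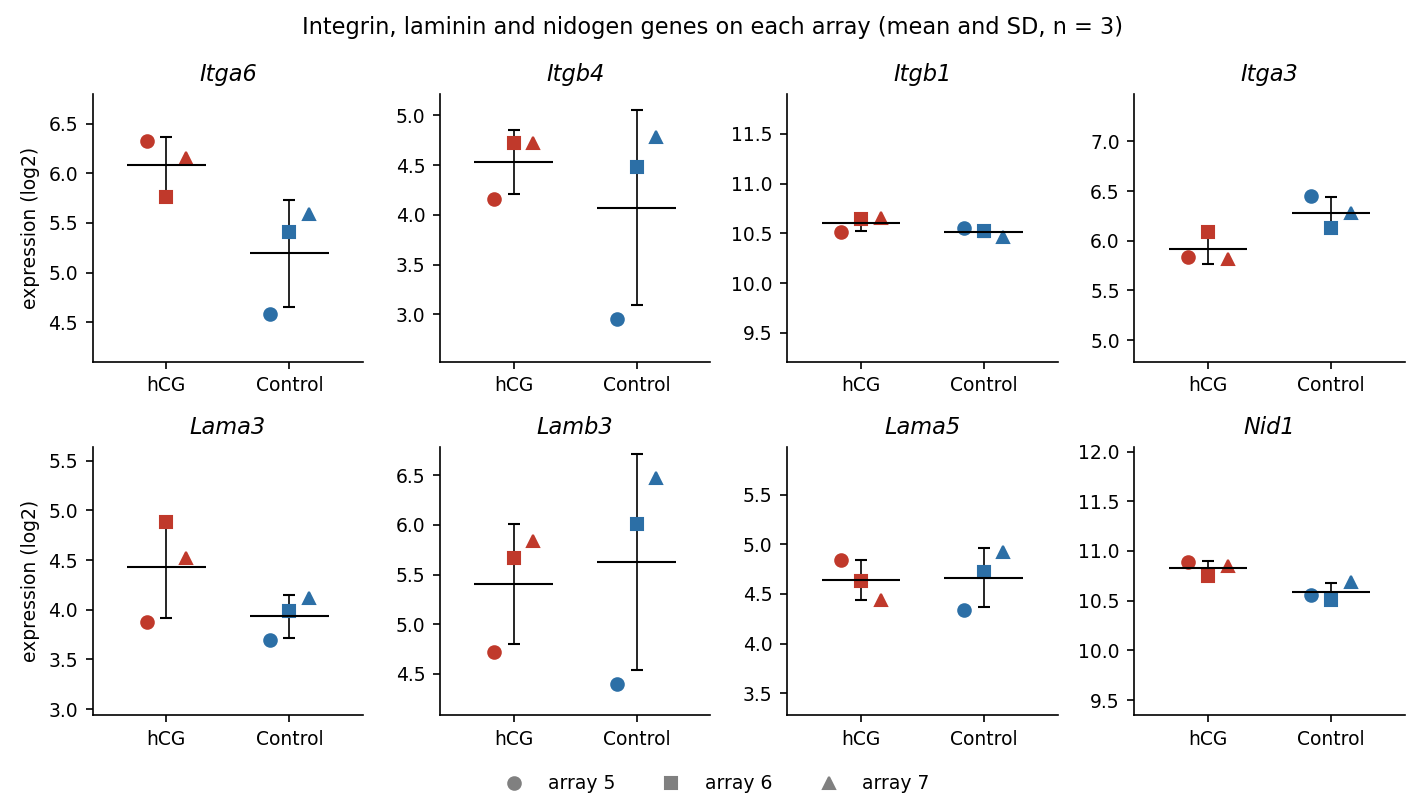
Log2 expression (vertical axis, the same span in every panel) of the 8 measured genes on 3 hCG arrays (red, left) and 3 Control arrays (blue, right), with a line at the group mean and bars of 1 SD. Itga6 and Nid1 lie higher and Itga3 lower on all hCG arrays, and Control 5 (blue circle) is the lowest array for Itga6, Itgb4, Lama3, Lamb3 and Lama5.

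The 2 measured chains of the epithelial laminin had changes of opposite sign, neither of which passed the test. Lama3, its alpha chain, read 3.88, 4.89 and 4.52 on hCG 5, 6 and 7, against 3.69, 3.99 and 4.12 on Control 5, 6 and 7. The hCG arrays 6 and 7 lay above all Control arrays, while hCG 5 lay within them. The log2 change was 0.49 (SE 0.25, 95% interval -0.11 to 1.09), with a limma adjusted p = 0.286. It was 0.26 without hCG 6 and 0.77 without hCG 5.

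Lamb3, the beta chain of that laminin, read 4.72, 5.67 and 5.84 on hCG 5, 6 and 7, against 4.40, 6.01 and 6.47 on Control 5, 6 and 7. The arrays numbered 5 were the lowest of each group, and the Control values spanned 2.08 on the log2 scale, the widest range of any member in either group. The log2 change was -0.22 (SE 0.55, 95% interval -1.53 to 1.09), with a limma adjusted p = 0.841. It was -0.83 without Control 5 and 0.21 without Control 7, so its direction rested on single arrays.

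Lama5, the alpha chain of the laminins shared by epithelium and vessels, read 4.84, 4.63 and 4.44 on hCG 5, 6 and 7, against 4.34, 4.73 and 4.92 on Control 5, 6 and 7. The hCG values lay between the lowest and highest Control arrays, and the log2 change was -0.03 (SE 0.17, 95% interval -0.43 to 0.38). Its other 2 probe sets were dim, with means of 1.33 and 1.53, and their log2 changes of 0.11 and -0.24 had opposite signs. Neither had an adjusted p under 0.05 when all probe sets were tested (0.505 and 0.278).

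Nid1, a glycoprotein that links laminin to collagen IV, was bright on every array. Its brighter probe set read 10.89, 10.74 and 10.84 on hCG 5, 6 and 7, against 10.56, 10.50 and 10.69 on Control 5, 6 and 7. All hCG values lay above all Control values, by 0.06 at the closest, between hCG 6 and Control 7. The means were 10.83 ± 0.08 in hCG spheres and 10.58 ± 0.10 in Control spheres (SD, n = 3 arrays each). The log2 change was 0.25 (SE 0.09, 95% interval 0.04 to 0.45, 1.19-fold), with a limma adjusted p = 0.160. The dimmer probe set of Nid1 overlapped between the groups. It ranged from 4.29 to 4.36 in hCG spheres and from 4.19 to 4.57 in Control spheres, a log2 change of -0.06 (SE 0.11). The mean of both Nid1 probe sets had a change of 0.09 (limma adjusted p = 0.567).

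**Figure D2:**
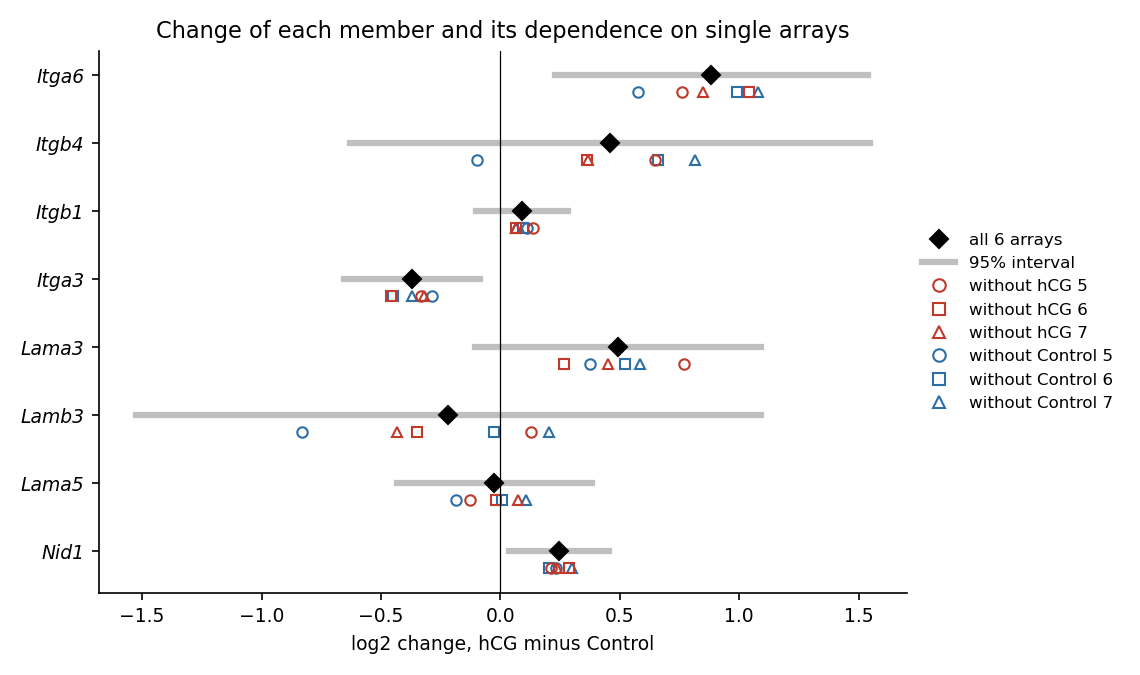
Log2 change, hCG minus Control (horizontal axis), of each of the 8 genes: diamonds with grey bars give the value over 6 arrays and its 95% interval, and open symbols the value with 1 array left out (red hCG, blue Control). Itgb4 turns from 0.46 to -0.10 without Control 5, Lamb3 ranges from -0.83 to 0.21, and Itga6, Itga3 and Nid1 keep their sign throughout.

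Whether partner chains changed unequally was examined for 5 pairs, by the within-array difference of the members, each relative to its Control mean. The exact permutation test, two-sided, cannot give a p below 0.1 with 3 arrays against 3. Itga3 relative to Itgb1 was -0.44, -0.33 and -0.60 on hCG arrays, against 0.12, -0.17 and 0.05 on Control arrays, a difference of -0.46 with no overlap (exact permutation p = 0.1, adjusted p = 0.4 over the 5 pairs). Itga6 relative to Itgb1 differed by 0.79 and Itga6 relative to Itgb4 by 0.42 (exact permutation p = 0.2 and p = 0.4). With the mean of all probe sets of each gene, which takes in the 3 dim ones of Itga6, these became 0.13 and -0.22. Lama3 relative to Lamb3 differed by 0.71, with Control values from -0.67 to 0.99 (exact permutation p = 0.4), and Lama5 relative to Nid1 by -0.27, or -0.15 with the mean of all probe sets (exact permutation p = 0.3 and p = 0.2). With the brightest probe sets all 5 adjusted p were 0.4, and with the mean of all probe sets they were 0.5 to 0.8, so no pair was shown to have changed unequally.

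The members did not share 1 pattern over the arrays. By Pearson's r over the 6 arrays, given as a description of points that fall into 2 groups, Itgb4 and Lamb3 were each other's closest member (r = 0.85), as were Itga6 and Nid1 (r = 0.85) and Itgb1 and Lama3 (r = 0.73). Lama5 was closest to Itgb4 (r = 0.55), and Itga3 had no positive r with any other member (highest r = -0.09). Among 10422 other tested genes, those most like Itga6 were Rras2 (r = 0.996), Kif15 (r = 0.994) and Xrcc5 (r = 0.993). Those most like Nid1 were Sptssa (r = 0.999), Ssx2ip and Tmcc1 (r = 0.998 and 0.997), and those most like Lama5 were Eif2b5 (r = 0.990), Osbpl7 (r = 0.988) and Doc2g (r = 0.976). These genes were picked as the extremes of that ranking.

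The members' levels were set beside markers of the cell types that make them, each list given as its mean log2 level relative to the Control mean. In bulk RNA, fewer cells of a type and less RNA per cell cannot be told apart. Basal and myoepithelial markers (9 of 12 listed genes tested, among them the keratins Krt5 and Krt14) were at 0.44, 0.60 and 0.64 on hCG 5, 6 and 7, against -0.57, 0.07 and 0.49 on Control 5, 6 and 7. Luminal markers (11 of 12 tested) were at -0.36, -0.54 and -0.68 on hCG arrays, against -0.80, 0.20 and 0.60 on Control arrays, a mean difference of -0.52. Of the 11, 9 had a change below 0 and 2 above, where 55.8% of all tested genes lay above 0. Cd24 alone was called, lower (-1.42, limma adjusted p = 0.0289), where 0.816% of all tested genes were called lower. Both lists overlapped between the groups, and both were lowest on Control 5, as were 5 of the 8 members (Itga6, Itgb4, Lama3, Lamb3 and Lama5), compared with 21.9% of all tested genes.

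The basal marker level averaged 0.56 higher on hCG arrays, so subtracting it on each array lowers every gene's change by that amount alike. What the subtraction also moves is the spread within each group. For Itga6 the values became 0.69, -0.03 and 0.31 on hCG arrays, against -0.05, 0.14 and -0.10 on Control arrays, so the groups overlapped. Its hCG SD became 0.36 in place of 0.28. The Control SD fell to 0.13 in place of 0.54 for Itga6, to 0.48 in place of 0.98 for Itgb4, to 0.57 in place of 1.09 for Lamb3 and to 0.24 in place of 0.30 for Lama5. It grew to 0.58 in place of 0.05 for Itgb1, to 0.64 in place of 0.16 for Itga3, to 0.48 in place of 0.10 for Nid1 and to 0.32 in place of 0.22 for Lama3. By that common shift alone, the difference between the groups stayed above 0 only for Itga6 (0.32), whose change of 0.88 exceeded 0.56. It was below 0 for the other 7, Nid1 (-0.31), Itgb1 (-0.47), Lama3 (-0.06) and Itgb4 (-0.10) among them. Luminal markers rose in the same order over Control 5, 6 and 7 (-0.80, 0.20 and 0.60), and their level was not subtracted. Whether any fall in Control SD was particular to the basal markers was not tested. How far the amount of basal cell RNA accounts for any change was not tested either.

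Endothelial markers (10 of 13 tested, Tie1 and Vwf below the filter) were at 1.32, 1.36 and 1.27 on hCG 5, 6 and 7, against -0.36, -0.15 and 0.51 on Control 5, 6 and 7. Of the 10, 5 were called higher (Sox17, Esam, Emcn, Cd93 and Erg), where 1.01% of all tested genes were called higher. Sox17 read 1.79, 2.03 and 2.88 on Control arrays, a mean below the filter level of 2.67, and entered the test through its hCG values. Fibroblast markers (9 of 10 tested) were at 0.46, 0.26 and 0.47 on hCG arrays, against -0.11, -0.04 and 0.14 on Control arrays. Their members went both ways, with Lum called higher (1.13) and Dpt called lower (-0.99, limma adjusted p = 0.0373 and 0.0375). Pericyte markers (5 of 7 tested) were at 0.57, 0.56 and 0.73 on hCG arrays, against -0.18, 0.03 and 0.15 on Control arrays, with Rgs5 called higher. Rgs5 read 2.43 to 2.55 on Control arrays, below the filter level of 2.67, and entered the test through its hCG values of 2.95 to 3.30. Adipocyte markers (2 of 6 tested) were at 0.97, 0.95 and 0.97 on hCG arrays, against -0.19, -0.05 and 0.24 on Control arrays. Of the 2, Fabp4, which capillary endothelium also expresses, was called higher (1.91), and Lpl had a change of 0.02. Macrophage markers (4 of 9 tested) overlapped between the groups. Schwann cell markers (4 of 6 tested) lay lower on all hCG arrays, at -0.23 to -0.16, against -0.13 to 0.18 on Control arrays, with 0 called and 0 at an unadjusted p under 0.05. Endothelium also makes Itga6, Lama5 and Nid1, and mesenchymal cells make Nid1. The part of these cell types in the Itga6 and Nid1 values was not tested. The epithelial markers Epcam, Cd24, Krt5 and Krt14 and the stromal markers Dcn, Col1a2 and Col3a1 all lay above the filter level of 2.67 on all 6 arrays. The stromal markers were far brighter, with Control means of 12.48 (Dcn), 11.40 (Col1a2) and 12.02 (Col3a1). The epithelial Control means were 7.32 (Epcam), 8.22 (Cd24), 5.24 (Krt5) and 6.14 (Krt14), and the order was the same on hCG arrays. The share of epithelial and stromal RNA in the spheres was not tested.

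**Figure D3:**
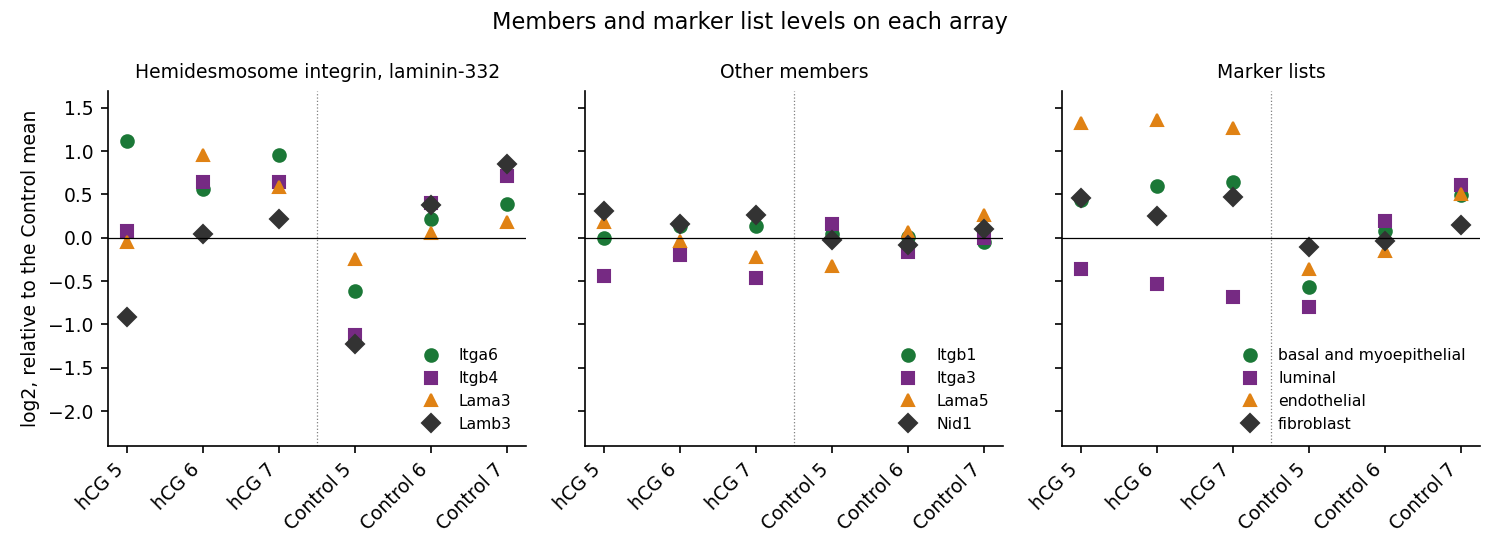
Log2 level relative to the Control mean (vertical axis) on each of the 6 arrays, hCG left of the dotted line and Control right of it. Left, Itga6, Itgb4, Lama3 and Lamb3; middle, the other 4 genes; right, the mean of each marker list. Control 5 is low for the left genes and for basal and luminal markers, and endothelial markers lie at 1.27 to 1.36 on hCG arrays.

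The hCG arrays all had less signal from the bacterial poly-A transcripts spiked into RNA ahead of labelling, with a mean log2 level of 4.51 ± 0.34 on hCG arrays and 5.56 ± 0.14 on Control arrays (SD, n = 3 arrays each, exact permutation test, two-sided p = 0.1). This difference accompanied every comparison here, and its part in them was not tested. The median log2 signal of an array ranged from 3.44 to 3.48.

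Around these genes, 78 further genes of the basement membrane and of integrin adhesion were examined, of which 62 were tested. Nid2, the second nidogen, was the single gene called, higher in hCG spheres, where 1.01% of all tested genes were called higher and 0.816% lower. At an unadjusted p under 0.05, 10 of the 62 were higher and 13 of the 62 lower in hCG spheres, against 14.4% and 9.64% of all tested genes. Their median log2 change was 0.04.

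Nid2 read 7.43, 7.49 and 7.68 on hCG 5, 6 and 7, against 6.90, 6.94 and 6.66 on Control 5, 6 and 7. The groups stood clearly apart. It rose by a log2 change of 0.70 (SE 0.11, 1.62-fold), with a limma adjusted p = 0.0389. The change lay between 0.61 and 0.75 with 1 array left out in turn. The call was lost without Control 5, Control 6, hCG 5, hCG 6 or hCG 7 (limma adjusted p from 0.0533 to 0.196), and leaving out any of those but hCG 6 left 0 called genes in the whole table, with 1455 to 1950 genes at an unadjusted p under 0.05. Nid1, its close relative, had the smaller change of 0.25 given above. The difference between the nidogens was not tested.

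Of the other basement membrane proteins, 14 of 24 were tested, with a median of 0.21. Col4a1, a collagen IV chain and part of the network that nidogen binds, read 11.05, 10.90 and 10.97 on hCG arrays, against 10.58, 10.42 and 10.64 on Control arrays. Its log2 change was 0.43 (SE 0.09, limma adjusted p = 0.0634), and it passed without Control 7 (0.47, adjusted p = 0.0449). With the mean of its tested probe sets in place of the brightest it was 0.20 (adjusted p = 0.170). Smoc2, a secreted calcium-binding protein of the matrix, had a change of -0.40 (limma adjusted p = 0.1001), and Tinagl1, a basement membrane glycoprotein, one of -0.63 (limma adjusted p = 0.119).

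Of the other laminin chains, 7 were tested and 0 were called, with 1 at an unadjusted p under 0.05 (24.1% of all tested genes) and a median of 0.04. That was Lama4, the alpha chain of endothelial and mesenchymal laminins, with values of 8.46, 8.63 and 8.68 on hCG arrays, against 7.26, 7.79 and 8.49 on Control arrays. Its log2 change was 0.74 (SE 0.28, limma adjusted p = 0.177). Without Control 7 it was 1.06 (adjusted p = 0.0377), and without Control 5 it was 0.45 (adjusted p = 0.319). Lamb1 and Lamc1, the widespread beta and gamma chains, had log2 changes of 0.18 and 0.05, neither past the test (limma adjusted p = 0.216 and 0.755).

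Other integrins (10 of 14 tested) had a median of -0.35, with 8 below 0 and 2 above, where 55.8% of all tested genes lay above 0. At an unadjusted p under 0.05, 5 were lower and 2 higher, against 9.64% and 14.4% of all tested genes, and 0 were called. Itga7, a laminin-binding chain best known from muscle, read 4.04, 4.78 and 4.24 on hCG arrays, against 5.68, 5.32 and 5.07 on Control arrays. Its log2 change was -1.002 (SE 0.23), and limma gave an adjusted p = 0.0697. Itgb5, a partner of the alpha v chain in vitronectin binding, had a change of -0.38 (adjusted p = 0.124), and Itga9, whose product binds tenascin, one of 0.63 (adjusted p = 0.129). Itga9 was dim, at 2.41, 2.16 and 2.96 on Control arrays, a mean below the filter level of 2.67. It entered the test through its hCG values of 3.27, 3.04 and 3.10.

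The remaining hemidesmosome genes (5 of 5 tested) had a median of -0.10, with 0 called and 2 lower at an unadjusted p under 0.05 (9.64% of all tested genes). Col7a1, the collagen of the anchoring fibrils that hold the laminin of Lama3 and Lamb3 to the stroma, read 5.62, 7.04 and 6.67 on hCG arrays, against 7.18, 8.14 and 8.36 on Control arrays. Its log2 change was -1.45 (SE 0.43, limma adjusted p = 0.115). Cd151, a tetraspanin that binds the Itga3 and Itga6 chains, read 10.35, 10.59 and 10.39 on hCG arrays, against 10.82, 10.78 and 10.80 on Control arrays, a change of -0.36 (SE 0.09, adjusted p = 0.0866). Both were lower on every hCG array than on any Control array, as were 12.3% of all tested genes. Dst, a plakin of the hemidesmosome, had a change of -0.10 (adjusted p = 0.513).

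In the integrin adhesome, the proteins that link integrin tails to actin, 20 of 22 genes were tested with a median of 0.09, and 0 were called. At an unadjusted p under 0.05, 4 were higher and 2 lower, against 14.4% and 9.64% of all tested genes. Fermt2, a kindlin that activates integrins, read 9.74, 9.59 and 9.63 on hCG arrays, against 9.29, 9.34 and 9.14 on Control arrays, which gives 0.40 (SE 0.09) at a limma adjusted p = 0.0700. The mean of its tested probe sets gave 0.19 (adjusted p = 0.183). The actin crosslinker Actn4 and the parvin Parvb had changes of -0.53 and -0.46 (adjusted p = 0.0859 and 0.133), and Parvb one of -0.28 with the mean of its probe sets and -0.30 without hCG 5. Of 6 laminin receptors that are not integrins, 0 were called and 1, Dag1, was lower at an unadjusted p under 0.05 (9.64% of all tested genes). The changes were -0.32 for Dag1 (dystroglycan), 0.20 for Bcam, the receptor of the Lama5 chain, and -0.10 for Lgals3 (adjusted p = 0.170, 0.257 and 0.484).

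**Figure D4:**
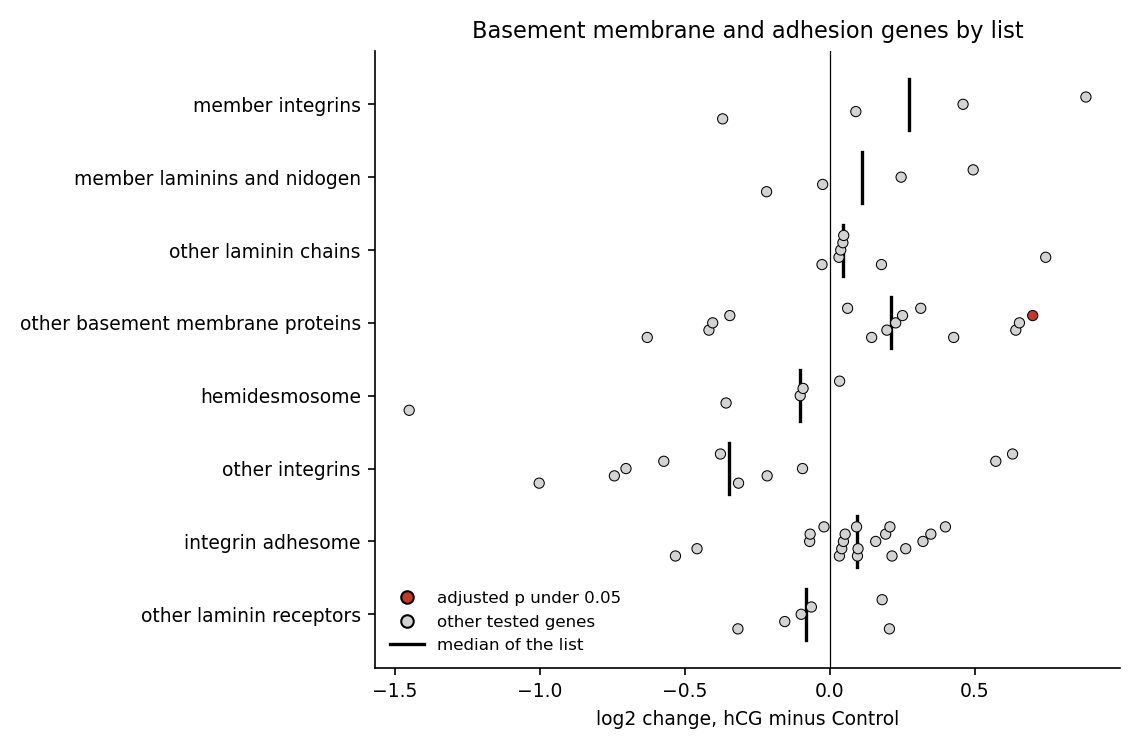
Log2 change, hCG minus Control (horizontal axis), of each tested gene of the member lists and of 6 related lists, 1 point per gene with the list median as a line. Nid2 (red, 0.70) is the single gene with an adjusted p under 0.05, and the other integrins have a median of -0.35.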

How the data were processed

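The values used were the authors' deposited log2 expression table, with 31099 probe sets and 6 arrays. Per the labels' protocols, RNA was labelled with a kit of 2 amplification cycles for Affymetrix 3' arrays. RMA, MAS5 and limma appear in the submitters' processing notes without roles or versions. The log2 scale and normalization between arrays were inferred from the values (0.74 to 13.1, nearly equal medians), so a shift common to most genes cannot be seen. The number of arrays limits the precision.

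The 57 control probe sets and the dimmest 40% of the others by mean were left out, leaving 18625. Of 31042 probe sets, 20826 named 1 gene, 436 several and 9780 none. Symbols were updated through GRCr8 RefSeq for 20758 of them. The brightest tested probe set stood for each of 10423 genes.

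Groups were compared with limma 3.58.1 (lmFit, eBayes, R 4.3.3), two-sided, with Benjamini-Hochberg adjustment over genes. The fit was tested on simulated data. Members, lists and tests were chosen with earlier results of these data known. Besides the members, the text names every called gene of each related list and the 3 others of smallest p. For likeness it names each member's closest member and, for Itga6, Nid1 and Lama5 alone, the 3 closest genes. Adjustment over all probe sets was added after seeing the data.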

Additional observations from a re-analysis of the deposited data

How the results depend on the processing

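The 3 arrays per group limit every value here. Of 134 recomputed member changes, 124 kept direction and side of the threshold, 3 came to pass it and 7 turned sign. Itga6, Itga3, Nid1, Itgb1 and Lama3 kept their sign under every alternative run for them, but not their size: Nid1 was 0.09 with the mean of its probe sets against 0.25, and Itgb1 0.03 with cyclic loess against 0.09. A stricter filter, which dropped 60% of probe sets, left Itgb4 and Lama3 untested.

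Array weights, which gave hCG 7 a weight of 7.25 and Control 7 one of 0.23, called 2663 genes against 190, with 3 members against 0 and 22 genes of the related lists against 1. Itga6 was then at 1.08 (limma adjusted p = 0.0160), Itga3 at -0.44 (adjusted p = 0.0258), Nid1 at 0.29 (adjusted p = 0.0211) and Lamb3 at 0.42 (adjusted p = 0.517). In the other alternatives 0 members were called, with 1 to 4 at an unadjusted p under 0.05. A variance trend called 306 genes, 3 of them in the related lists (Nid2, Col4a1 and Fermt2), and adjustment over all probe sets called 177.

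With 1 array left out, 0 to 584 genes and 0 to 8 related genes were called. Log2 changes then lay between 0.58 and 1.08 for Itga6, -0.10 and 0.81 for Itgb4, -0.46 and -0.29 for Itga3, 0.26 and 0.77 for Lama3, -0.83 and 0.21 for Lamb3, -0.19 and 0.11 for Lama5, 0.21 and 0.30 for Nid1, and 0.06 and 0.14 for Itgb1. Lamc1 turned to -0.0069 with cyclic loess and to -0.017 with the mean of its probe sets. Itga6 relative to Itgb4 turned to -0.22 with the mean of all probe sets, which adds the 3 dim Itga6 probe sets. The cause of the other changes of sign was not tested.

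Over all tested probe sets, arrays of the same number did not deviate together (r = -0.09, 0.13 and 0.0015 for numbers 5, 6 and 7). The shared numbers were therefore not taken as pairs, though this does not settle the question for single genes. Among the members, Itgb4, Lama3 and Lamb3 were lowest on number 5 in both groups, and the others were not. With the number as a replicate block 118 genes and 0 members were called, with 3 members higher and 1 lower at an unadjusted p under 0.05. The SE fell to 0.20 in place of 0.55 for Lamb3, to 0.25 in place of 0.46 for Itgb4 and to 0.16 in place of 0.25 for Lama3. It rose for Itga6, Itgb1, Itga3, Lama5 and Nid1. Nid2 lost its call (0.70, adjusted p = 0.0827) and Col7a1 came to pass (-1.45, adjusted p = 0.0450).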
